A study of Mus musculus with 6 samples.

Results

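The mannose receptor family was examined in mouse KP cells without and with induction of hairpins that target Npm1, which encodes the nucleolar protein nucleophosmin. The 4 genes of the family, Mrc1, Mrc2, Pla2r1 and Ly75, were taken from the 48526 gene identifiers of the count files by their symbols. They were chosen by a measured value, the high CPM of Mrc1 without doxycycline in libraries with low values of other macrophage genes. That level is therefore given as a description with no test, and so is the difference of Mrc1 with doxycycline. The labels call the cells KP and name no tissue. All cells carried a tetracycline-inducible pLKO.1 vector with 1 of 3 hairpins, named shNpm1-3, shNpm1-4 and shNpm1-5, and were selected with 2 ug/ml puromycin into 3 stable lines, here line 3, line 4 and line 5. The untreated group was lines 3, 4 and 5 without doxycycline, and the treated group was the same 3 lines with 100 ng/ml doxycycline, at 1 library of total RNA per line and condition. The lines are the replicates, so p-values measure the spread between lines with different hairpins, and nothing shows how separate cultures of a line would differ. No library came from cells given doxycycline without a hairpin against Npm1, so the drug and the knockdown cannot be told apart.

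The family consists of large membrane proteins that share a cysteine-rich end domain, a fibronectin type II domain and a row of C-type lectin-like domains, and that cycle between the surface and endosomes through clathrin-coated pits. Mrc1, the mannose receptor (CD206), takes up glycoproteins that end in mannose, fucose or N-acetylglucosamine and is known from tissue macrophages, some dendritic cells, and liver sinusoidal and lymphatic endothelium. Mrc2 (Endo180, uPARAP) takes up collagen in fibroblasts and other mesenchymal cells, Pla2r1 binds secreted phospholipases A2, and Ly75 (DEC-205) is an uptake receptor of dendritic cells and thymic epithelium.

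In mm10, Mrc1 (ENSMUSG00000026712) lies on chromosome 2 from 14229392 to 14332057 on the plus strand. Ly75 (ENSMUSG00000026980, 60292103 to 60383303) and Pla2r1 (ENSMUSG00000054580, 60417543 to 60553308) lie side by side on the minus strand of the same chromosome, 34.2 kb apart. Mrc2 (ENSMUSG00000020695) lies on chromosome 11 from 105292643 to 105351139 on the plus strand. The longest transcripts of Mrc1, Mrc2, Pla2r1 and Ly75 have 5374, 5795, 7112 and 6901 bases, in 30 exons each for the first 3 and 35 for Ly75. Their longest open reading frames were 46.8% to 52.2% identical in aligned bases, with the highest value between Pla2r1 and Ly75. The only other gene with a blastn match to the Mrc1 transcript was Mrc2, with 69.0% identity over 226 bases. No exonic base of Mrc1 or Mrc2 is shared with another annotated gene. For Ly75, 3.61% of exonic bases overlap the antisense gene Gm13571, and for Pla2r1, 3.11% overlap the antisense gene Gm13583. The strand setting of the counting is not given in the sources used here, but each antisense gene had 1 count over all 6 libraries.

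Mrc1, Ly75 and Pla2r1 differed widely in abundance, and the 250 bases before their RefSeq starts (GRCm38.p6) are shown to set the start regions side by side. Capitals mark GAGGAA, a core of sites for the myeloid factor PU.1 (read as TTCCTC on the printed strand), GGGCGG, a core of Sp1 sites (read as CCGCCC), and TTTAAAA, a stretch like that of a TATA box.
Mrc1, chr2:14229164-14229413, plus strand: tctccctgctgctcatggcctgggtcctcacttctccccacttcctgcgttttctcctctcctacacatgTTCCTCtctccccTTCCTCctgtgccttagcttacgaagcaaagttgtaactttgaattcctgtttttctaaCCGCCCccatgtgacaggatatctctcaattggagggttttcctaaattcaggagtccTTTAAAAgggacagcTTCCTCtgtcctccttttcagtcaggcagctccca
Ly75, chr2:60383274-60383523, minus strand: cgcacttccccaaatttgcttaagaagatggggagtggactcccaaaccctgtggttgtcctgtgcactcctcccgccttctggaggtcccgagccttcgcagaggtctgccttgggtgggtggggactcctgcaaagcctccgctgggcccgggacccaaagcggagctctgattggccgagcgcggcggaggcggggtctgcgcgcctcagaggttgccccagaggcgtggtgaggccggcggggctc
Pla2r1, chr2:60553309-60553558, minus strand: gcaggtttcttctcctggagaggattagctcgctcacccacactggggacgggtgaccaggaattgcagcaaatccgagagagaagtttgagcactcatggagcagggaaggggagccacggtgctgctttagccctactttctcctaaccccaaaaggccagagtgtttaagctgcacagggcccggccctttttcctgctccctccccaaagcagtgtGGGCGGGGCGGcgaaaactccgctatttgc

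The Mrc1 window had 3 CpG dinucleotides and 49.6% G and C, the Pla2r1 window 9 and 57.6%, and the Ly75 window 17 and 66.8%, against a median of 6 CpG over 32851 such windows in the table. Both strands were searched. GAGGAA occurred 3 times before Mrc1, at first bases 180, 167 and 35 bases before the start, and in neither other window, while 23.3% of all windows hold it. GGGCGG had 1 match before Mrc1 and 2 overlapping matches before Pla2r1, and 32.7% of windows hold it. TTTAAAA began 50 bases before the start of Mrc1 only, and 8.10% of windows hold it. TATAAA had no match in the 3 windows and is held by 12.4% of all windows. The same was so for the E-box CACGTG, held by 6.02%, and for the spaced palindrome bound by STAT6, held by 5.85%. A match is a description of letters and not of a bound site.

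The libraries held 24391198 to 27341036 counts in genes, of which 14531 genes passed the filter on low counts. Npm1 was lower with doxycycline in each line, with means of 1926 ± 75.4 and 237 ± 166 CPM (read counts scaled to library size; SD, n = 3 each), and 3.39%, 13.2% and 20.8% of its level remained in lines 3, 4 and 5. The keratins Krt7, Krt8 and Krt18 of simple epithelia led the 10 epithelial markers, at 5517 ± 168, 4060 ± 387 and 3616 ± 289 CPM (SD, n = 3) without doxycycline. The 11 fibroblast markers summed to 7.45 to 9.25 CPM in the same libraries, and Lum had no count in any library. Macrophage markers, 23 in all, had sums of 67.9 to 73.3 CPM in untreated and 208 to 463 CPM in treated libraries, and 16 of them were under 1 CPM on average in the untreated libraries.

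Mrc1 made up nearly all reads of the family. Of the 9317 to 11002 family counts in each untreated library, 97.3% to 97.6% were of Mrc1, and with doxycycline the share was 94.9% to 97.1%. Without doxycycline Mrc1 was at 414, 386 and 349 CPM in lines 3, 4 and 5, a mean of 383 ± 32.7 CPM (SD, n = 3). The 3 untreated lines thus lay close together. Per kb of its longest transcript the level was 71.2 ± 6.08 CPM per kb (SD, n = 3), where the median gene tested was at 5.04. By this measure 92.8% of the 14496 tested genes with an annotated length were below Mrc1, and its rank was 1038.

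The genes nearest to Mrc1 in CPM per kb without doxycycline were calnexin (Canx), a lectin chaperone of the endoplasmic reticulum, at 71.2 ± 3.17 CPM per kb, Dram2 at 71.3 ± 11.2, Cdc123 at 71.4 ± 3.50, Pdcd10 at 70.9 ± 9.51 and the noncoding Epb41l4aos at 70.9 ± 4.00 (SD, n = 3 each). Their levels cannot be set in an order with Mrc1, since the distances are under these SDs.

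Ly75 came next in level, far below Mrc1. It was at 8.93, 9.76 and 8.45 CPM in lines 3, 4 and 5 without doxycycline, or 1.31 ± 0.0961 CPM per kb (SD, n = 3), with 25.5% of tested genes below it. Per kb, Mrc1 was 50.8 to 59.5 times as high as Ly75 in the untreated libraries. Pla2r1 was near the foot of the tested genes, at 0.924, 1.06 and 0.729 CPM, from 24, 27 and 19 counts, or 0.127 ± 0.0232 CPM per kb (SD, n = 3), with 2.53% of tested genes below. Mrc2 had 3 counts in line 3 and none in lines 4 and 5, where 3 counts would be 0.118 and 0.115 CPM. It was not detectable above that level and did not pass the filter. The order Mrc1, Ly75, Pla2r1, Mrc2 held in each of the 6 libraries, with no overlap between neighbours in the untreated group.

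**Figure D1:**
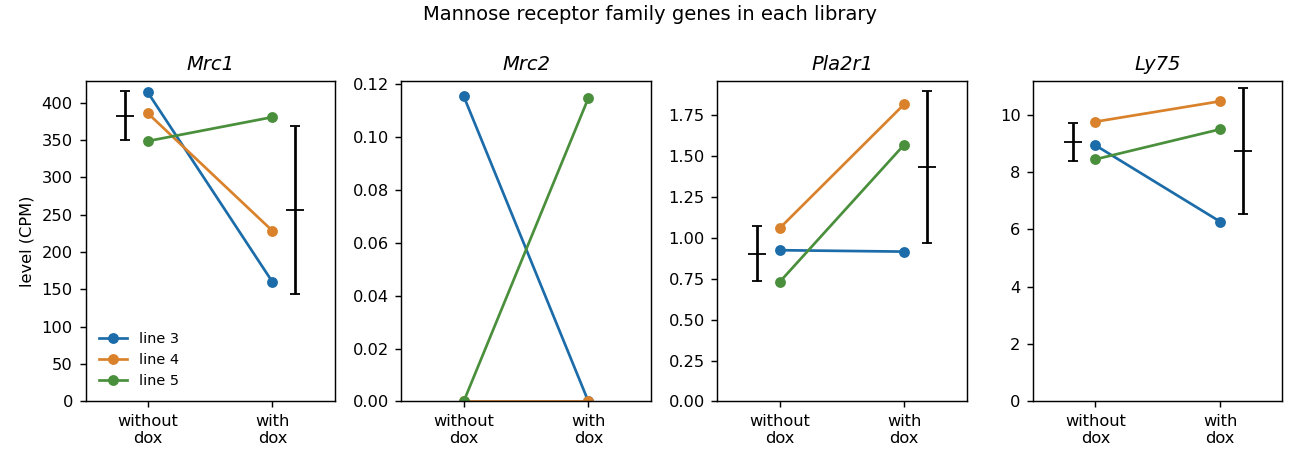
Level of each family gene in CPM (vertical axes from 0, different scales) without and with doxycycline; points are libraries, lines join the 2 libraries of a line, and black bars show mean ± SD of 3 lines (left out for Mrc2, which has 6 counts in all). Mrc1 went down in lines 3 and 4 and not in line 5, and Pla2r1 was higher with doxycycline in lines 4 and 5.

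With doxycycline the lines parted in Mrc1. Its level was 160, 228 and 381 CPM in lines 3, 4 and 5, a mean of 256 ± 113 CPM (SD, n = 3), so that the groups overlapped. The ratio of the treated to the untreated library was 0.386 in line 3 (95% exact counting interval 0.372 to 0.402), 0.592 in line 4 (0.574 to 0.610) and 1.09 in line 5 (1.06 to 1.12). These intervals cover counting error only, and with 1 library per line and condition the difference between the lines' responses was not tested. The log2 fold change over the 3 lines was -0.58 (SE 0.26), as a description. It was -0.26 without line 3 and -1.05 without line 5, so its size rested on which line was in the group.

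The order of the lines in Mrc1 was that of the knockdown. Line 3 kept the least Npm1 (3.39%) and the least Mrc1 (38.6%), line 4 kept 13.2% and 59.2%, and line 5 kept 20.8% and 109%. The ratios of Ly75 (0.702, 1.07 and 1.12) and of Pla2r1 (0.991, 1.72 and 2.15) had the same order of lines, so it was not particular to Mrc1. With 3 lines this is a description, and the share of all genes with this order was not determined. The summed macrophage markers had another order, with a rise of 4.09-fold in line 3, 6.59-fold in line 4 and 3.06-fold in line 5.

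**Figure D2:**
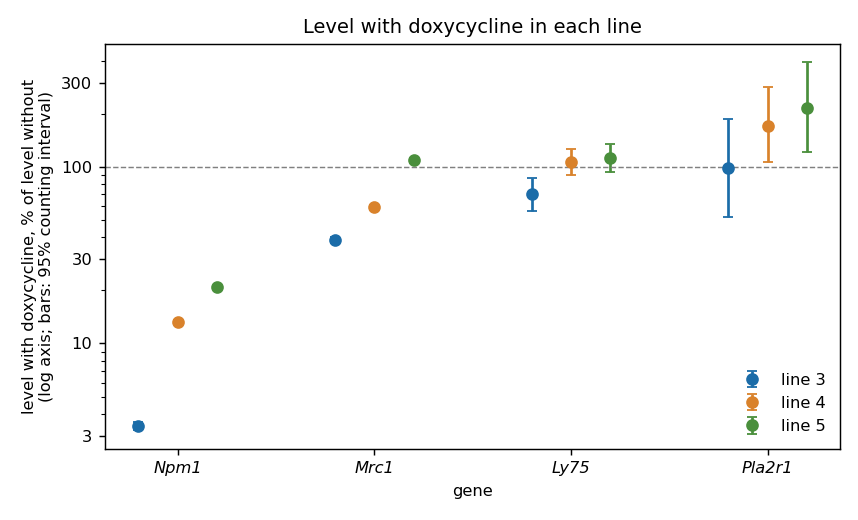
Level with doxycycline as a percent of the level without it (log axis) for Npm1 and the 3 family genes with enough counts, 1 point per line, with 95% exact counting intervals as bars. Npm1 and Mrc1 both rise from line 3 over line 4 to line 5, at 3.39% to 20.8% and at 38.6% to 109%. The points of Ly75 and Pla2r1 have the same order, and the intervals of Ly75 in lines 4 and 5 include 100%.

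Neither of the 2 other members with enough counts passed the test for doxycycline, where 2.28% of all genes tested did (332 of 14531, by the quasi-likelihood test of edgeR at a Benjamini-Hochberg threshold of 0.05). At an unadjusted p under 0.05 the count was also 0 of 2, against 16.3% of all genes, and DESeq2 and limma-voom called neither. Pla2r1, the receptor of secreted phospholipases, went from 0.904 ± 0.165 to 1.43 ± 0.466 CPM (SD, n = 3 each; log2 fold change 0.68, SE 0.35, edgeR adjusted p = 0.381). Its counts were 20, 55 and 41 with doxycycline in lines 3, 4 and 5. The ratio was 0.991 in line 3 (95% exact counting interval 0.519 to 1.87), 1.72 in line 4 (1.06 to 2.83) and 2.15 in line 5 (1.22 to 3.92). These intervals overlap, and a difference between the lines was not shown.

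Ly75 was at 6.27, 10.5 and 9.49 CPM with doxycycline in lines 3, 4 and 5, a mean of 8.75 ± 2.20 against 9.05 ± 0.663 CPM without (SD, n = 3 each; log2 fold change -0.04 with SE 0.21 and an adjusted p = 0.951 by edgeR). The groups overlapped. Line 3 had the low value again, with a ratio of 0.702 (95% exact counting interval 0.564 to 0.871), and lines 4 and 5 had ratios of 1.07 and 1.12 with intervals that include 1. The sign of the log2 fold change turned to 0.15 without the treated library of line 3. Mrc2 had 3 counts in the treated library of line 5 and none in lines 3 and 4, so both groups had 3 counts and no ratio is given.

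Differences between the lines, over both conditions, were tested with doxycycline in the model. The edgeR adjusted p was 0.876 for Ly75 and 0.895 for Pla2r1 (0.303 and 0.462 unadjusted), and Mrc1, chosen by its level, is given no test. Over all genes 0.0% passed (0 of 14531 by edgeR, with 667 at an unadjusted p under 0.05). The count was 16 by DESeq2, 0 by limma-voom and 240 by edgeR with no filter on low counts.

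Genes close to the members gave no called neighbour. Within 100 kb of the 4 genes, 9 other genes passed the filter and none was called for doxycycline by edgeR or limma-voom, while Cd302 was by DESeq2 (adjusted p = 0.041) and by edgeR with no filter on low counts (0.00549). Next to Mrc1, Tmem236, which starts upstream on the same strand and ends 7.40 kb before it, had 27 counts without and 70 with doxycycline (log2 fold change 1.29 with SE 0.55; edgeR adjusted p = 0.284, and 0.0402 without the treated library of line 3). The endosomal sorting gene Stam had -0.19 (SE 0.13) and the zinc transporter gene Slc39a12 0.02 (SE 0.39). Slc39a12 was at 1.24, 1.92 and 3.87 CPM with doxycycline in lines 3, 4 and 5, in the order of Mrc1. Mrc1 thus stood far above its neighbours, of which Stam was highest at 67.7 ± 3.27 CPM without doxycycline (SD, n = 3), or 13.5 CPM per kb.

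Cd302, another C-type lectin gene, lies 7.62 kb from Ly75 on the same strand. It was at 9.20, 5.37 and 6.64 CPM without and 14.6, 14.3 and 8.88 CPM with doxycycline in lines 3, 4 and 5. Each line was higher with doxycycline, but the groups overlapped through the untreated library of line 3 (log2 fold change 0.83, SE 0.25, edgeR adjusted p = 0.139). Beside Pla2r1, the integrin gene Itgb6 had a log2 fold change of 0.10 (SE 0.31). Beside Mrc2, the kinase gene Tlk2 had mean levels of 38.3 ± 0.303 CPM untreated and 33.9 ± 2.98 CPM treated (SD, n = 3 each), while Mrc2 itself had 6 counts in all.

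**Figure D3:**
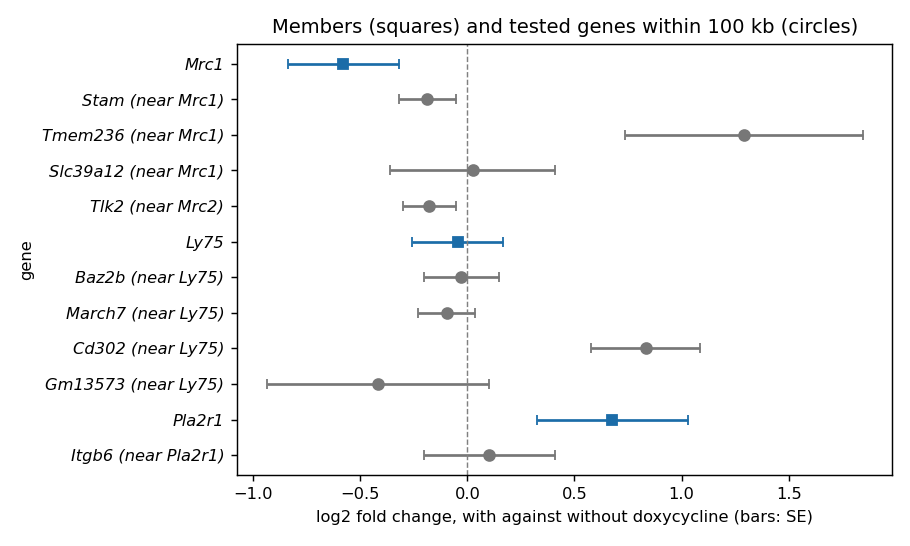
Log2 fold change with against without doxycycline (edgeR, bars are SE) of the family genes and of the tested genes within 100 kb of them. Mrc1 is shown with no test and none of the others passed the edgeR threshold; Tmem236 beside Mrc1 (1.29) and Cd302 beside Ly75 (0.83) had the highest values.

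An intron of Mrc1 holds the hairpin of miR-511, a microRNA of macrophages and dendritic cells. Its 3p arm is shown because it is transcribed within the most abundant member, with the seed (bases 2 to 8) in capitals.
miR-511-3p, chr2:14261051-14261072, plus strand: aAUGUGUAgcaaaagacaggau
The Mir511 gene had 1 count without and 3 with doxycycline. Counting of total RNA by gene does not measure the mature microRNA.

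Macrophage genes stood in another relation to Mrc1 before and after doxycycline. Among the 23 macrophage markers, the highest in CPM per kb in each untreated library was Cd14, a co-receptor for lipopolysaccharide, and Mrc1 was 4.21 to 5.46 times as high. Mrc1 alone was 1.72 to 2.03 times as high per kb as all 23 markers summed. With doxycycline the highest marker was Lyz2, the lysozyme of macrophages, at 69.5, 111 and 45.6 CPM per kb in lines 3, 4 and 5. Lyz2 was above Mrc1 in lines 3 and 4 and below it in line 5.

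With doxycycline 16 of the 23 macrophage markers rose, none fell, 5 did not pass and 2 were below the filter, where 0.963% of all genes rose. This count is a description only, since low untreated values of these genes were part of the choice of the family. Moreover, 8 of the 16 met the minimum count of the filter in no untreated library, so that they entered the test through the treated group where they are high. Ctss, Tyrobp, C1qa and C1qc met it in only some of the untreated libraries, so they too were tested only because of the treated group. Without the untreated library of line 3, 9 markers passed, and calls over all genes were then 89 against 332 in the main fit. Gpnmb, Adgre1 and Sirpa were among the 8 that met the minimum in no untreated library, so their values are given with no test. Gpnmb, a glycoprotein of lipid-laden macrophages, rose from 0.0520 ± 0.0599 to 62.6 ± 32.8 CPM (SD, n = 3 each). Adgre1, the gene of the F4/80 antigen, had 2 counts without and 845 with doxycycline, a ratio of 419 (95% exact counting interval 116 to 3463). Sirpa, an inhibitory receptor of myeloid cells, rose by 6.64 on the log2 scale (SE 0.45). Of the markers with the highest untreated levels, Cd14 was at 23.9 ± 1.22 and 21.7 ± 3.09 CPM, the endosomal Cd68 at 9.73 ± 1.70 and 10.7 ± 2.05, and Ptprc, the CD45 antigen of blood cells, at 8.65 ± 1.82 and 5.32 ± 1.69 (SD, n = 3 each, without and with). None of these 3 passed. In bulk RNA, fewer cells of a type and less RNA per cell cannot be told apart.

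**Figure D4:**
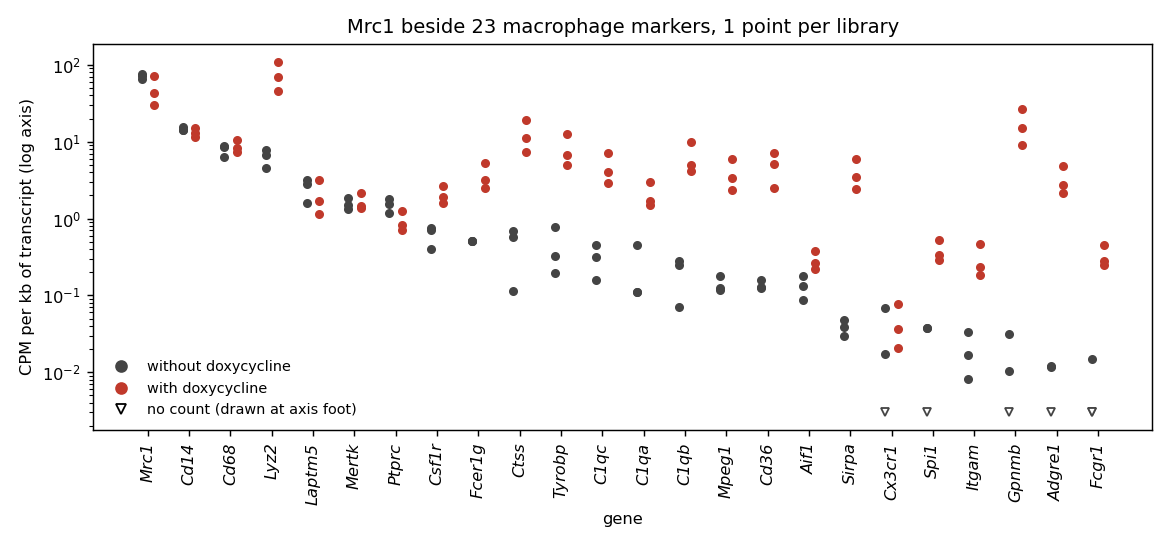
Mrc1 and the macrophage markers in each library (points) in CPM per kb on a log axis, with triangles at its foot for libraries with no count. Without doxycycline Mrc1 lies above all 23 markers in each line, and with doxycycline Lyz2 lies above it in lines 3 and 4.

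Genes that accompany Mrc1 in resident and alternatively activated macrophages were mostly near the floor. Of 18 such genes, 15 were at or under 1 CPM on average without doxycycline. The haptoglobin scavenger receptor Cd163 had no count without and 1 with doxycycline, Lyve1 had 1 and 0, the folate receptor Folr2 1 and 28, and Retnla none in any library. Of the 8 tested, 3 rose and none fell, where 0.963% of all genes rose. Msr1 and Gas6 met the minimum count of the filter in no untreated library. Stab1 had 4, 12 and 7 untreated counts in lines 3, 4 and 5 and met it there in line 4 alone. All 3 genes thus entered the test through the treated libraries, so the count supports nothing and their values are given with no test. Stab1, a scavenger receptor, rose from 0.298 ± 0.160 to 9.52 ± 3.80 CPM (SD, n = 3 each). Msr1, another scavenger receptor, had 2 and 219 counts, a ratio of 109 (95% exact counting interval 29.7 to 902), and Gas6, a ligand of receptors for dying cells, rose by 3.91 on the log2 scale (SE 0.51). The selenium carrier Selenop, which is also abundant in other tissues, was at 1467 ± 446 and 1456 ± 217 CPM, Maf at 6.32 ± 1.71 and 5.73 ± 1.19, and Arg1 at 3.92 ± 1.17 and 3.47 ± 1.45 (SD, n = 3 each); none of these passed.

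The other cell types known for Mrc1 were represented by few reads. The 15 markers of sinusoidal and lymphatic endothelium summed to 13.2 to 16.3 CPM without and 8.65 to 12.1 CPM with doxycycline. Pecam1 had 56 and 26 counts, Cdh5 11 and 7, and Stab2 22 and 8. Other members went up, with 1 and 46 counts of Pdpn, 24 and 74 of Fcgr2b, 32 and 57 of Vwf, and 7 and 13 of Kdr. Of the 6 tested members, 3 had a log2 fold change above 0 and 3 below. Flt4, a receptor of lymphatic growth factors, fell from 6.91 ± 1.19 to 2.62 ± 1.11 CPM (SD, n = 3 each, with an edgeR adjusted p = 0.0427), a call lost in 7 of 14 other settings. The lymphatic factor Prox1 was at 2.88 ± 0.436 and 2.44 ± 0.370 CPM and the co-receptor Eng at 2.69 ± 0.554 and 2.76 ± 0.541 CPM.

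The 15 dendritic cell markers, of interest for Ly75 as well, summed to 11.5 to 14.9 CPM in untreated libraries and to at most 12.6 CPM in treated ones. Flt3 had 3 and 8 counts, Xcr1 1 and 2, and Clec9a 1 and 0. The chemokine receptor Ccr7 fell from 4.27 ± 1.07 to 0.806 ± 0.0650 CPM (SD, n = 3 each, with an edgeR adjusted p = 0.00278; 0.0775 without line 4). The integrin Itgax rose from 0.142 ± 0.0825 to 1.84 ± 0.831 CPM. It entered the test only through the treated libraries, so its values are given with no test. The factors Irf8 and Zbtb46 were at 3.02 ± 0.463 and 2.10 ± 0.448 CPM without and 3.03 ± 0.451 and 1.42 ± 0.477 CPM with doxycycline.

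For Mrc2, the fibroblast markers had 4 of 11 members above the filter. Thy1, a surface antigen of fibroblasts and thymocytes, fell from 3.01 ± 0.903 to 0.0525 ± 0.0473 CPM (SD, n = 3 each). It entered the test only through the untreated libraries, so its values are given with no test. Pdgfra was at 3.42 ± 0.309 and 2.71 ± 2.65 CPM, with ratios of 1.87, 0.284 and 0.374 in lines 3, 4 and 5. Col6a3 was at 1.14 ± 0.365 and 0.710 ± 0.391 CPM. Of the 10 epithelial markers 9 were tested, 1 fell and 8 did not pass, where 1.32% of all genes fell. The 1 was the tight junction gene Cldn4, at 29.7 ± 4.65 CPM without and 12.7 ± 4.96 CPM with doxycycline (adjusted p = 0.0325 by edgeR). That call was lost in 6 of 14 other settings. All 9 had a log2 fold change below 0 (median -0.29), where 50.4% of all genes were above 0. Their summed level overlapped between the groups, with ratios of 1.07, 0.668 and 0.865 in lines 3, 4 and 5. The part of these marker genes in the values of the family was not tested.

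Interleukin 4 acting through STAT6 is the textbook inducer of Mrc1. Of 15 genes of this axis, 13 were tested, none rose and 2 fell, where 1.32% of all genes fell. A log2 fold change below 0 was found for 11 of 13, where 50.4% of all genes were above 0. The ligands had few counts, with 29 of Il4 without and 38 with doxycycline, and 2 and 2 of Il13. Irf4, a factor of alternative activation and among the 2 that fell, had 45 counts without and 6 with doxycycline (log2 fold change -2.84, SE 0.50). It entered the test only through the untreated libraries, so its values are given with no test and the count of 2 is a description only. Klf4, another factor of alternative activation, fell from 60.0 ± 3.76 to 31.3 ± 10.7 CPM (SD, n = 3 each, with an edgeR adjusted p = 0.0460). Each of the 2 calls was lost in 7 of 14 other settings, all of which left out a library or a line. The axis as a sum was at 445 to 481 CPM without and 358 to 366 CPM with doxycycline, so these groups did not overlap. The groups of Mrc1 did overlap, and single tested genes did not overlap in 22.6% of cases. Both are of single genes and give no background for a sum of 15.

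Of 36 other C-type lectins and collectins, 11 had no count in any library and 9 passed the filter. Of these 9, 4 rose and none fell, where 0.963% of all genes rose, but all 4 met the minimum count in no untreated library and entered the test through the treated group where they are high. Cd93, a receptor of endothelial and myeloid cells, had 2 and 536 counts, a ratio of 266 (95% exact counting interval 73.2 to 2199). The myeloid receptor Clec4d had 1 and 225 counts, a ratio of 223 (39.6 to 8845), and the inhibitory Clec12a had 2 and 180, a ratio of 89.2 (24.3 to 742). The 9 intracellular lectins that handle mannose-bearing proteins were all tested and none passed, among them the chaperone Calr at 621 ± 36.7 and 612 ± 52.3 CPM and the sorting receptor M6pr at 345 ± 35.8 and 387 ± 24.9 CPM (SD, n = 3 each).

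Ligands, partners and uptake routes related to the other members were mostly not called. Of 11 secreted phospholipases A2, which Pla2r1 binds, 3 were tested and none passed, with Pla2g12a at 15.1 ± 1.16 and 15.2 ± 4.41 CPM and Pla2g3 at 1.17 ± 0.0210 and 1.98 ± 0.475 CPM (SD, n = 3 each). Of 18 scavenger receptors 14 were tested and 3 rose, where 0.963% of all genes rose. They were Stab1 and Msr1, which both entered the test through the treated libraries, and the fatty acid receptor Cd36 (0.464 ± 0.0637 to 16.7 ± 7.83 CPM). Without the treated library of line 3, 6 scavenger receptors were called, but calls over all genes were then 1551 against 332 in the main fit. The 19 genes of clathrin endocytosis, the route of the whole family, were all tested and none passed (1 did without the treated library of line 3), with the light chain Clta at 394 ± 18.3 and 420 ± 93.5 CPM and Rab7 at 274 ± 5.78 and 272 ± 52.9 CPM.

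**Figure D5:**
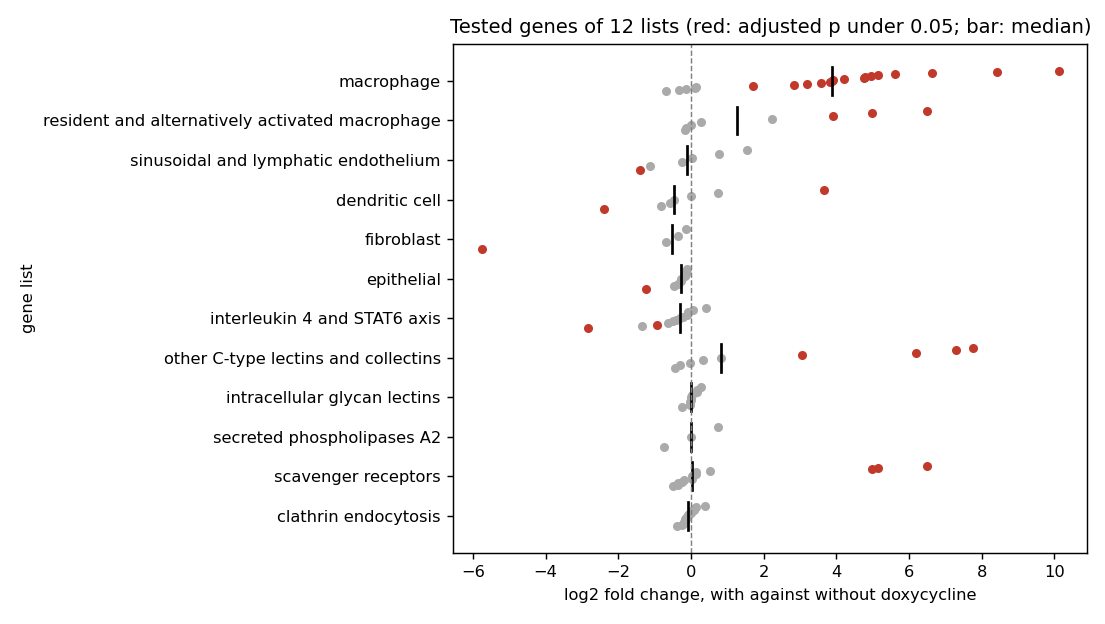
Log2 fold change with against without doxycycline of the tested genes of each list (points, red where called) with the list's median as a bar. Medians cover only genes past the filter, some of which passed it through 1 group alone; the 19 clathrin genes, all tested, have a median of -0.09.

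The genes with the profile most like that of Mrc1 were sought among 10193 tested genes of at least 5 CPM, by Pearson's r of log2(CPM + 0.5) over the 6 libraries. They were Cirbp, a cold-inducible RNA-binding protein, with r = 0.997, Hsf2bp with 0.991, Ptgs2os2 with 0.991, Lrrc2 with 0.990 and Clca3b with 0.986. Cirbp was at 67.5, 65.4 and 64.1 CPM without and 50.4, 54.8 and 65.7 CPM with doxycycline in lines 3, 4 and 5. It shared with Mrc1 the order of the lines and had a much smaller spread. The libraries share lines and treatment, and with 6 points and many genes such values are a description. Within the family r was 0.61 between Mrc1 and Ly75, -0.10 between Mrc1 and Pla2r1, and 0.60 between Pla2r1 and Ly75.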

How the data were processed

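RNA-seq libraries of 3 hairpin lines, each without and with doxycycline, were used. The authors deposited 1 table of raw read counts per gene and library; the submitters' processing notes name mm10 as the build and, in no stated order, STAR, HTSeq, Picard, CASAVA, bedtools, DESeq2 and R 3.3.0. Strand setting and annotation: not given in the sources used here. The 5 rows naming no gene (reads ambiguous, not unique and the like) held 43.7% to 47.7% of reads and were left out. Symbols were matched to 48144 of 48526 identifiers. The members and lists were chosen with earlier results of these data known.

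Counts were filtered with filterByExpr, scaled by TMM and tested with edgeR 4.0.16 (quasi-likelihood, R 4.3.3, treated against untreated, 14531 genes) with Benjamini-Hochberg adjustment and a threshold of 0.05; a gene is called where its adjusted p is below it. The biological coefficient of variation was 18.0%. CPM use the TMM library sizes; CPM per kb divide by the longest GENCODE transcript. At this depth 3 counts were 0.0991 to 0.137 CPM. Ratios within a line have exact binomial intervals for 95% counting error. Differences between lines were tested with doxycycline in the model. Alternatives were RLE scaling, no filter, the line as a block, DESeq2 1.42.0, limma-voom 3.58.1 and leaving out each library and line. In data simulated for the treated against untreated comparison (14320 genes), edgeR recovered 89.4% of 4-fold, 68.7% of 2-fold and 23.9% of 1.5-fold changes. Replicates of a group were not duplicates, with a chi-square per degree of freedom of 7.89 to 108. The numbers 3, 4 and 5 pair the samples because the labels give them to the same stable lines. Deviations of same-numbered libraries correlated at 0.0434, 0.0962 and 0.0274, and those of differently numbered libraries at -0.112 to 0.0713. These ranges overlap, so the pairing rests on the labels alone.

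Genes named were the members, genes within 100 kb of them, and from each list up to 3 called genes by smallest p and the most abundant markers (or, in pathway lists with no call, the 2 most abundant). The 5 genes nearest to Mrc1 in level and the 5 most like it in profile were also named. Defining markers near 0 counts, and Lyz2 as the highest marker, were named after their values were seen. Transcripts were compared with blastn 2.17.0 and aligned with mafft 7.526. The genes of collagen uptake around Mrc2 are not reported here.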

Additional observations from a re-analysis of the deposited data

Results flagged for a closer look

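The ratios of Mrc1 lay on both sides of 1 in lines of the same comparison. The ratio of the library with doxycycline to the library without was 0.386 in line 3, 0.592 in line 4 and 1.09 in line 5. With 1 library per line and condition the difference between these ratios was not tested, and the value of line 5 shows no drop rather than a rise, since the spread between cultures of a line is unknown.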

How the results depend on the processing

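The count of genes called for doxycycline was 332, 1052 with no filter on low counts, 720 with DESeq2, and 62 to 1551 when a library or a line was left out (62 without line 4, 1551 without the treated library of line 3, 89, 117 and 182 without the untreated library of line 3, 4 or 5, and 664 and 197 without line 3 or 5). The cause was not tested. Pla2r1 and Ly75 were not called in any of 14 other settings (adjusted p 0.0916 to 0.877 and 0.605 to 0.999). Leaving out libraries or lines gave log2 fold changes of 0.47 to 0.93 for Pla2r1, -1.05 to -0.26 for Mrc1 and -0.19 to 0.15 for Ly75. For Ly75 the sign turned without the untreated library of line 4 (0.01), the treated library of line 3 (0.15) or line 3 (0.14). With the line as a replicate block, 243 genes were called and the values were -0.67 for Mrc1, 0.64 for Pla2r1 and -0.07 for Ly75; the block changed no call of a member. Mrc2, with 6 counts, gave no value in any setting. Lone libraries left by an omission are assumed to vary like the rest. Low counts limit Pla2r1 and Mrc2.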
